A study of Mus musculus with 24 samples.

Results

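The alveolar type I cell genes are 10 genes, Ager, Aqp5, Pdpn, Hopx, Cav1, Cav2, Emp2, Akap5, Clic5 and Rtkn2, chosen by name as genes that mark the thin gas-exchange cell of the lung. They are 10 of the 34832 gene names on a single-colour mouse oligonucleotide array and were read by 16 of its 55681 gene probes. RNA came from primary mouse cells labelled as alveolar type II cells, grown for 3 days at an air-liquid interface until they formed a monolayer, and then treated. In the first experiment (16 arrays) cultures were kept for 6 h or 24 h with 100 µM NaHS, a fast-releasing hydrogen sulfide donor, or with medium alone as vehicle, with 4 arrays in each of the 4 groups. In the second experiment (8 arrays) all cultures received 100 µM of the slow hydrogen sulfide donor GYY4137 for 24 h, in 21% or in 85% oxygen, with 4 arrays each and no array without the donor. Strain, age and sex of the mice are not in the labels, and nothing in them says whether replicates came from separate isolations, so p-values measure the spread between these samples, which may be technical.

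Type I cells cover most of the alveolar surface and share a basement membrane with the capillaries. Type II cells make surfactant and act as progenitors: in injured lung, and in culture on a flat support, they flatten, lose surfactant genes and gain type I genes. The genes studied here are the usual readout of that passage, although several are not exclusive to type I cells: caveolin genes are active in endothelium, smooth muscle and fibroblasts, podoplanin in mesothelium and lymphatic vessels, and Hopx in part of the type II population in development and repair.

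Values are log2 processed signals minus the 75th percentile of log2 signals of the same array, so a level of 0 equals that percentile and 1 unit is a doubling. Levels of different probes cannot be set against each other. Differences were tested with limma across all genes and called at a Benjamini-Hochberg adjusted p under 0.05. The probe with the highest mean level stands for a gene. That probe was above background on all 24 arrays for 9 of the 10 genes. For the other, Rtkn2, it was above background on 7 of 16 arrays of the NaHS experiment and on 4 of 8 arrays of the GYY4137 experiment.

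The labelled cell type was checked against markers. Of 11 type II genes on the array, 8 were above background on every array of each experiment. Slc34a2, a type II phosphate transporter, was above background on no array of the NaHS experiment. All 7 smooth muscle and pericyte genes were above background on every array of both experiments, as were 6 of 7 fibroblast genes in the first experiment and 7 of 7 in the second. The other fibroblast gene, Col1a2, was read on 3 vehicle arrays at 6 h after an outlier spot was left out. It was above background on the 15 arrays that read it. Of 10 endothelial genes, 4 were above background on every array of the NaHS experiment and 6 on every array of the GYY4137 experiment. In the same order the counts were 4 and 6 of 6 lymphatic and mesothelial genes and 3 and 5 of 6 macrophage and leukocyte genes. They were 3 and 4 of 4 basal, 3 and 4 of 5 ciliated, and 2 and 2 of 5 club cell genes. The endothelial factor Erg was above background on no array of the NaHS experiment. In bulk RNA, fewer cells of a type and less RNA per cell cannot be told apart. The 2 slides of the NaHS experiment each carried 2 arrays of every group (odd replicate numbers on slide 1, even numbers on slide 2), with 55.8% to 58.3% of spots well above background on slide 1 and 68.5% to 74.5% on slide 2. In the GYY4137 experiment 1 slide held the 21% oxygen arrays and another the 85% arrays, so slide and oxygen cannot be told apart.

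The 250 bases before the start sites of the genes were examined because the members differed in how closely they followed Ager across arrays. That difference was described after the values were seen and is graded. RefSeq start sites (GRCm38.p6) were matched for 9 of the 10 genes, 11 start sites in all; Rtkn2 had no entry. Shown are Hopx and Cav2, whose slope on Ager passed in the fit with groups and slide given below, and Pdpn and Cav1, whose slope did not. The slopes of Cav2 (0.16 ± 0.02) and Cav1 (0.12 ± 0.05) were alike in size, so the windows do not stand for separate classes. The first-listed windows of Ager, Aqp5, Akap5 and Clic5 overlapped an annotated gene and are not shown. The Emp2 window overlapped no annotated gene and was left out by choice. Each is written 5′ to 3′ on the gene's strand, and capitals mark a match to a searched motif on either strand.
Hopx (chr5:77115124-77115373, minus strand): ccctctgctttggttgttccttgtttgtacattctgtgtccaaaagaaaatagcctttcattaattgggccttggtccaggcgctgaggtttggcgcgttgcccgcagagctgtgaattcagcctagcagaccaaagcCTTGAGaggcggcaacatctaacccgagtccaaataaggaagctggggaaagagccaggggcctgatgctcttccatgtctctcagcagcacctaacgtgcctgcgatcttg
Cav2 (chr6:17280935-17281184, plus strand): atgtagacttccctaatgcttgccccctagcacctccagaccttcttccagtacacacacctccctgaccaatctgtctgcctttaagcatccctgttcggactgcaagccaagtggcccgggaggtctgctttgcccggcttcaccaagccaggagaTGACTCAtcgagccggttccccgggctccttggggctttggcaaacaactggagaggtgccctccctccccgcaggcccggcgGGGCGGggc
Pdpn (chr4:143299565-143299814, minus strand): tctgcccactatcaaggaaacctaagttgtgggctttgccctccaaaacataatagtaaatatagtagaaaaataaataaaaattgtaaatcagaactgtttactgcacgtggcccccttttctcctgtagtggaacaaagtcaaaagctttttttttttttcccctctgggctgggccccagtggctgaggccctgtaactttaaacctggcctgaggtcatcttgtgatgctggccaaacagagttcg
Cav1 (chr6:17306085-17306334, plus strand): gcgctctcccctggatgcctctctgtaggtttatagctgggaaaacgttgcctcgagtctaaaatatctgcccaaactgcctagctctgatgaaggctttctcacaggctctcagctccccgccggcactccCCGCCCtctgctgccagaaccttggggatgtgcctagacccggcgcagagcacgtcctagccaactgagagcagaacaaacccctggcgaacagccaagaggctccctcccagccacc
The motifs searched were GGGCGG (the GC box bound by Sp factors), GGAATG (TEAD factors, the partners of YAP and TAZ), CTCAAG (NKX2-1) and TGANTCA (AP-1). The GC box was found in 6 of the 11 windows, against 32.7% of the 32851 windows of the same length before all RefSeq start sites. CTCAAG was found in the Hopx window alone (13.3% of all windows) and TGANTCA in the Cav2 window alone (6.75%). GGAATG was in none of the 11 (12.6% of all windows). These letter matches are a description of the windows only.

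Ager encodes the receptor for advanced glycation end products, which in lung is made mainly by type I cells. Its probe lies at chr17:34735715-34735876 (mm9, the array's build). Vehicle at 6 h gave -0.11, -0.34, -0.19 and 2.93 in replicates 1 to 4, and NaHS at 6 h gave -0.54, 1.53, -0.76 and 3.57. At 24 h the 4 vehicle arrays read 1.18, -1.33, 2.14 and 0.19, and the 4 NaHS arrays 1.09, -1.43, 2.41 and 2.64. The highest array of both 6 h groups was replicate 4 and the lowest array of both 24 h groups was replicate 2, and all 4 groups overlapped. With GYY4137 the values were -2.19, -2.67, 1.67 and 0.93 in 21% oxygen and -3.22, -2.18, 1.03 and 0.56 in 85% oxygen, so replicates 3 and 4 were above replicates 1 and 2 in both. Group means ± SD (n = 4) were highest for 24 h of NaHS at 1.18 ± 1.87, followed by 6 h of NaHS at 0.95 ± 2.03, 6 h of vehicle at 0.57 ± 1.57 and 24 h of vehicle at 0.54 ± 1.48. In the other experiment they were -0.56 ± 2.18 in 21% and -0.95 ± 2.07 in 85% oxygen. No neighbours in either order differed beyond their spread.

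Clic5, a chloride intracellular channel protein tied to the cortical cytoskeleton, spanned more than Ager in the NaHS experiment (5.48 against 5.004) and less in the GYY4137 experiment (3.53 against 4.89). At 6 h it read -1.97, -2.47, -2.61 and 2.02 in vehicle and -1.99, 0.02, -3.11 and 2.38 in NaHS. The same 2 arrays as for Ager, replicate 4 of each group, stood above the rest. At 24 h the values were -1.28, -3.05, -0.17 and -2.06 in vehicle and -1.36, -2.74, 0.55 and 0.61 in NaHS. With GYY4137 they were -3.90, -3.92, -0.39 and -0.79 in 21% and -3.31, -2.32, -0.86 and -1.48 in 85% oxygen, again with replicates 3 and 4 above 1 and 2.

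Aqp5, the water channel of the type I apical membrane, read 3.45, 2.73, 2.60 and 4.45 in vehicle and 3.16, 3.83, 2.52 and 5.28 in NaHS at 6 h. At 24 h it read 3.23, 2.46, 3.79 and 2.45 in vehicle and 3.03, 2.29, 3.96 and 4.01 in NaHS. The order of the arrays was close to that of Ager, and the groups overlapped. Hopx, a homeodomain protein without DNA binding of its own, spanned -1.63 to 2.13 over the NaHS experiment, its 2 highest values being replicate 4 of vehicle (2.13) and of NaHS (1.94) at 6 h. Akap5, a scaffold that anchors protein kinase A, spanned 1.67 to 4.06 there, with replicate 4 of NaHS at 6 h highest. In the GYY4137 experiment replicates 3 and 4 lay above replicates 1 and 2 in both oxygen groups for 6 of the 10 genes, namely Ager, Aqp5, Hopx, Clic5, Akap5 and Cav2. The share over all genes was not counted, so this cannot be read as particular to these genes. Same-numbered arrays of that experiment also deviated together over all genes (r 0.18 to 0.26).

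Pdpn, a mucin-like membrane glycoprotein named T1-alpha in lung, stayed in a narrow band. It read 6.34, 6.50, 6.01 and 6.01 in vehicle and 6.46, 6.30, 6.06 and 6.14 in NaHS at 6 h. At 24 h it read 6.28, 6.61, 6.22 and 6.34 in vehicle and 6.11, 6.22, 6.04 and 6.06 in NaHS. The NaHS values at 24 h lay low, and of these 4 only replicate 2 reached the range of vehicle at 24 h. Its whole range was 0.60 log2 units in the NaHS experiment, against 5.004 for Ager and 5.48 for Clic5. Cav1, the main structural protein of caveolae, ranged from -1.42 to 0.00 and Cav2, its partner in the coat, from 0.99 to 2.03. Emp2, a tetraspan membrane protein, ranged from 4.14 to 5.55. Rtkn2 ranged from -7.14 to -3.94, mostly below background.

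**Figure D1:**
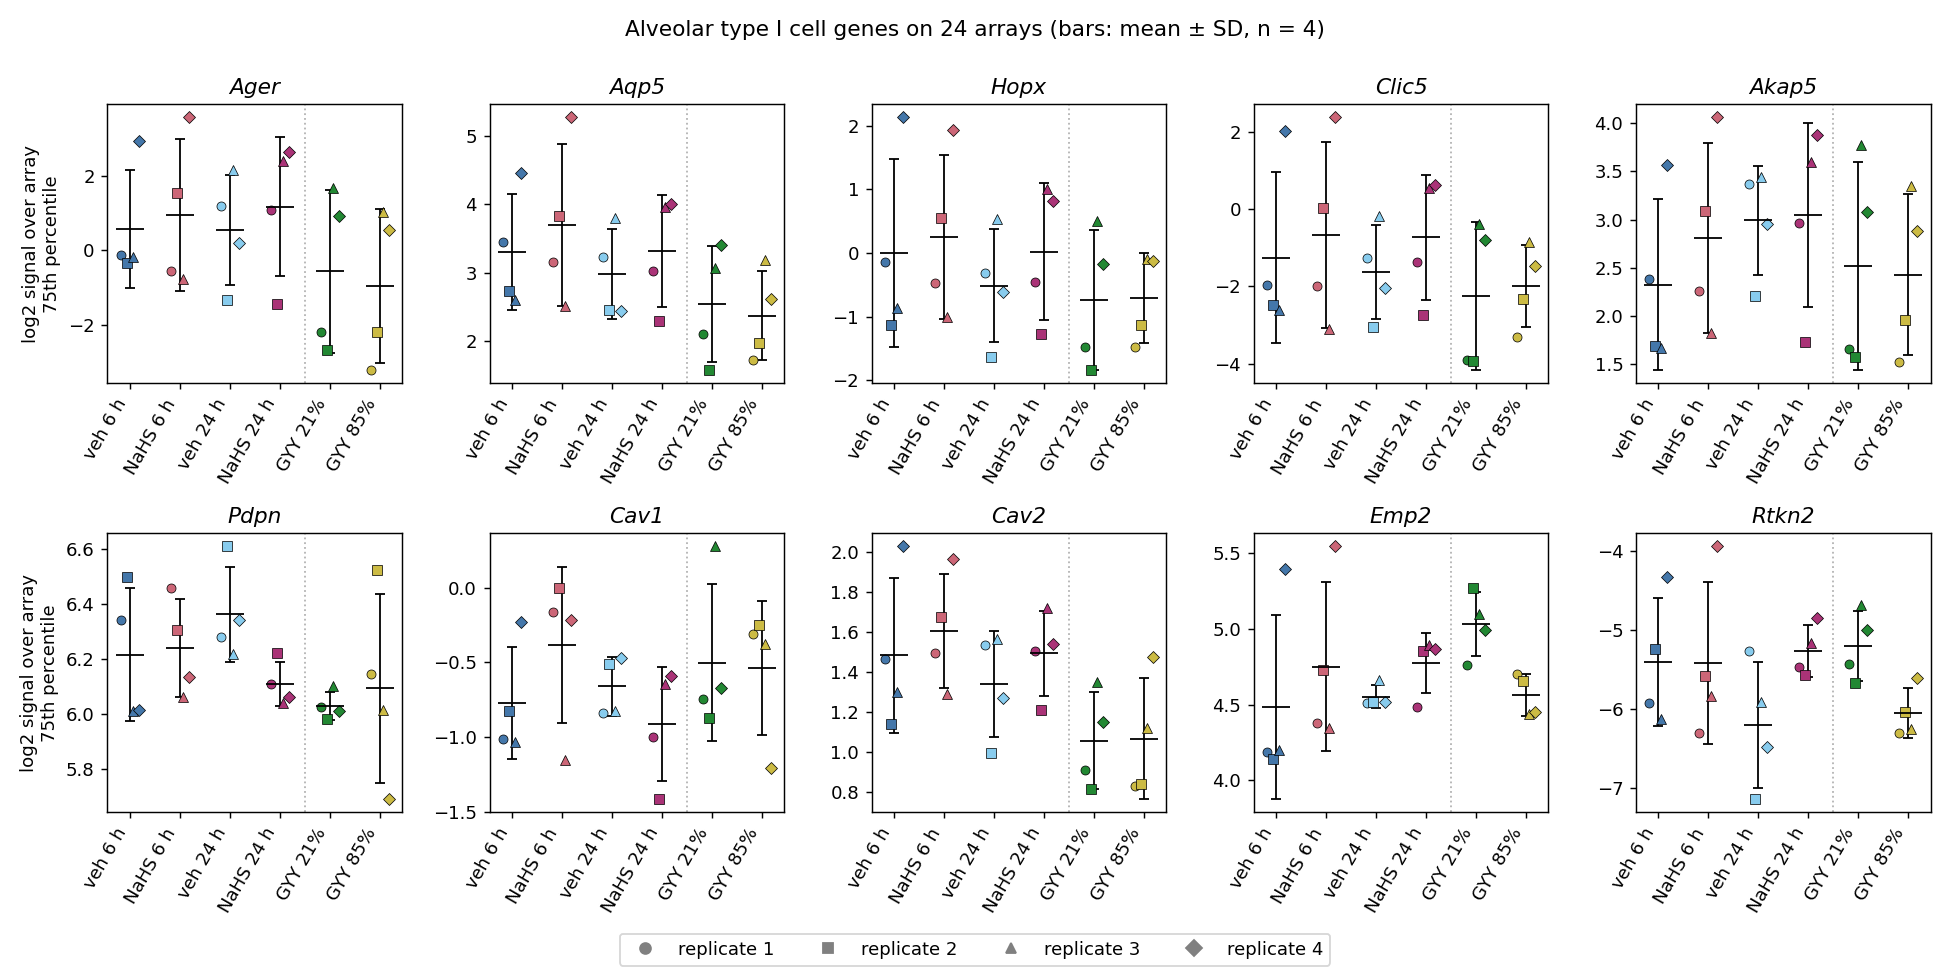
Level of each of the 10 genes on the 24 arrays, in log2 signal over the array's 75th percentile; symbols give the replicate number, the bar is the group mean ± SD (n = 4), the dotted line parts the NaHS from the GYY4137 experiment, and each panel has its own scale. Replicate 4 is highest in both 6 h groups for every gene shown but Pdpn and Cav1, a pattern not counted over all genes. Pdpn spans 0.60 log2 units over the first 4 groups.

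The spread within groups was set against that of all genes as a description. The within-group SD of Ager was 1.75 log2 units with NaHS and vehicle and 2.13 with GYY4137, where the medians over all genes were 0.412 and 0.277. Ager stood at percentile 95.9 of all genes in the first experiment and 99.98 in the second. Clic5 stood at percentiles 97.7 and 99.6 (SD 1.92 and 1.56) and Hopx at 84.1 and 96.5 (SD 1.21 and 0.92). Pdpn stood at percentiles 24.5 and 43.4, with SDs of 0.18 and 0.25. The 95% intervals of the group comparisons were correspondingly wide for the first 3 genes and narrow for Pdpn.

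NaHS against vehicle at 6 h addressed the effect of the fast donor. Of the 10 genes, 0 were called, beside 0% of all 33255 genes tested (196 had an unadjusted p under 0.05). The estimates were positive for 9 of 10 (50.8% of all genes), with a median of 0.32 beside 0.00 for all genes, and every interval included 0. Most members varied together across arrays, so their signs are not independent. The estimate was 0.38 ± 1.18 (SE) for Ager with a 95% interval of -2.16 to 2.92, 0.58 ± 1.29 for Clic5, 0.48 ± 0.59 for Akap5, 0.39 ± 0.61 for Aqp5 and 0.39 ± 0.27 for Cav1. The Pdpn interval, -0.26 to 0.31 around 0.02, was the narrowest. The adjusted p from limma was 0.999997 for all 10. Within slide 1 the Ager difference was -0.50 ± 0.51 and within slide 2 it was 1.26 ± 1.67.

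At 24 h, again 0 of the 10 were called, beside 0% of all genes (760 at an unadjusted p under 0.05). The estimates were positive for 8 of 10 (48.5% of all genes) with a median of 0.28 beside -0.01 for all genes, and their signs are again not independent. Ager gave 0.63 ± 1.18 with an interval of -1.91 to 3.17, Clic5 0.90 ± 1.29, Hopx 0.53 ± 0.81 and Rtkn2 0.94 ± 0.53, with 3 of 4 NaHS arrays and 1 of 4 vehicle arrays above background for the last. Pdpn gave -0.26 ± 0.13 (interval -0.54 to 0.03) and Cav1 -0.25 ± 0.27. Within slides 1 and 2 the Ager difference was 0.09 ± 0.51 and 1.17 ± 1.67. The difference between the 24 h and the 6 h effects was called for 0 of 10 genes and for 0% of all genes (359 at an unadjusted p under 0.05). It was 0.25 ± 1.67 for Ager, -0.28 ± 0.19 for Pdpn and -0.64 ± 0.38 for Cav1. With slide as a block, these 3 comparisons called 0 of the 10 genes and 0% of all genes each (634, 2971 and 1589 at an unadjusted p under 0.05).

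Time in culture was the next comparison. Between 6 h and 24 h in vehicle 0 of the 10 genes were called, beside 0.806% of all genes (268, of which 168 were higher and 100 lower at 24 h). With slide as a block, which called 2.14% of all genes, the count was again 0. Rtkn2 had the lowest p, at -0.80 ± 0.53, with 2 of 4 arrays above background at 6 h and 1 of 4 at 24 h. Akap5 gave 0.67 ± 0.59, Hopx -0.51 ± 0.81 and Ager -0.03 ± 1.18. In NaHS-treated cells 0 of 10 were called, beside 0.0271% of all genes (9), and 0 beside 0.0481% with slide as a block. Cav1 came closest, at -0.53 ± 0.27 with a limma adjusted p of 0.702. Its values were -0.16, 0.00, -1.15 and -0.22 at 6 h and -1.003, -1.42, -0.65 and -0.59 at 24 h, which overlap.

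Oxygen was compared among cells that all had GYY4137. Here 15.5% of all 34644 genes were called (5374, 3430 of them higher in 85% oxygen), and 0 of the 10 genes, of which 2 (Emp2 and Rtkn2) had an unadjusted p under 0.05, as did 11802 of the 34644 genes. The median of the 10 was -0.06, beside 0.06 for all genes. Emp2 read 4.77, 5.27, 5.10 and 4.995 in 21% and 4.70, 4.66, 4.44 and 4.45 in 85% oxygen, which did not overlap, and its difference was -0.47 ± 0.14 with a limma adjusted p of 0.0569. The other Emp2 probe read 3.40 ± 0.05 (SD, n = 4) in 21% and 2.44 ± 0.57 in 85% oxygen. With every probe tested on its own (15.9% of 41604 probes called) it was the only 1 of the 16 probes called, at -0.95 ± 0.26 and a limma adjusted p of 0.0416. Rtkn2 read -5.43, -5.67, -4.69 and -5.00 in 21% and -6.31, -6.04, -6.25 and -5.60 in 85% oxygen, with 3 of 4 and 1 of 4 arrays above background. Its difference was -0.85 ± 0.25 with a limma adjusted p of 0.0516. The 2 groups overlapped between -5.67 and -5.60. The other 8 genes had adjusted p-values from 0.823 to 0.977, among them Ager (-0.39 ± 1.27), Clic5 (0.26 ± 0.93) and Pdpn (0.06 ± 0.17).

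The 6 other probes of the members, on Aqp5, Pdpn, Hopx and Emp2 (1 each) and Cav2 (2), were fitted on their own. For NaHS at 6 h they gave 0.38 ± 0.64 (Aqp5), -0.02 ± 0.21 (Pdpn), 0.27 ± 0.88 (Hopx) and 0.19 ± 0.31 (Emp2), and for Cav2 0.24 ± 0.21 and -0.01 ± 0.33. At 24 h of NaHS they gave 0.39 ± 0.64, -0.13 ± 0.21, 0.76 ± 0.88 and 0.13 ± 0.31, and for Cav2 0.19 ± 0.21 and 0.12 ± 0.33. The last Cav2 probe was above background on 13 of 16 and 5 of 8 arrays, and the other 5 on all 24. By oxygen the probes of Aqp5, Pdpn and Hopx gave -0.43 ± 0.51, 0.26 ± 0.16 and -0.03 ± 0.68, and those of Cav2 -0.07 ± 0.26 and 0.18 ± 0.47. Over time in vehicle they gave -0.39 ± 0.64 (Aqp5), 0.09 ± 0.21 (Pdpn), -0.68 ± 0.88 (Hopx), -0.03 ± 0.31 (Emp2) and, for Cav2, 0.01 ± 0.21 and -0.49 ± 0.33. In NaHS the same probes gave -0.37 ± 0.64, -0.02 ± 0.21, -0.20 ± 0.88, -0.09 ± 0.31, -0.03 ± 0.21 and -0.36 ± 0.33. None of the 6 was called, other than that of Emp2 by oxygen.

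The calls for Emp2 and Rtkn2 moved with the processing, in a comparison where the main fit called 15.5% of all genes. Emp2 passed when the 21% oxygen replicate 1 was left out (-0.56, limma adjusted p 0.0294), with median scaling (-0.61, 0.0300) and with the mean of its probes (-0.71, 0.0339). Rtkn2 passed when the 21% oxygen replicate 2 was left out (-1.01, limma adjusted p 0.0482), with quantile normalization (-1.01, 0.0280) and on the authors' value table (-0.97, 0.0290). Both kept a negative sign in each alternative that measured them.

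**Figure D2:**
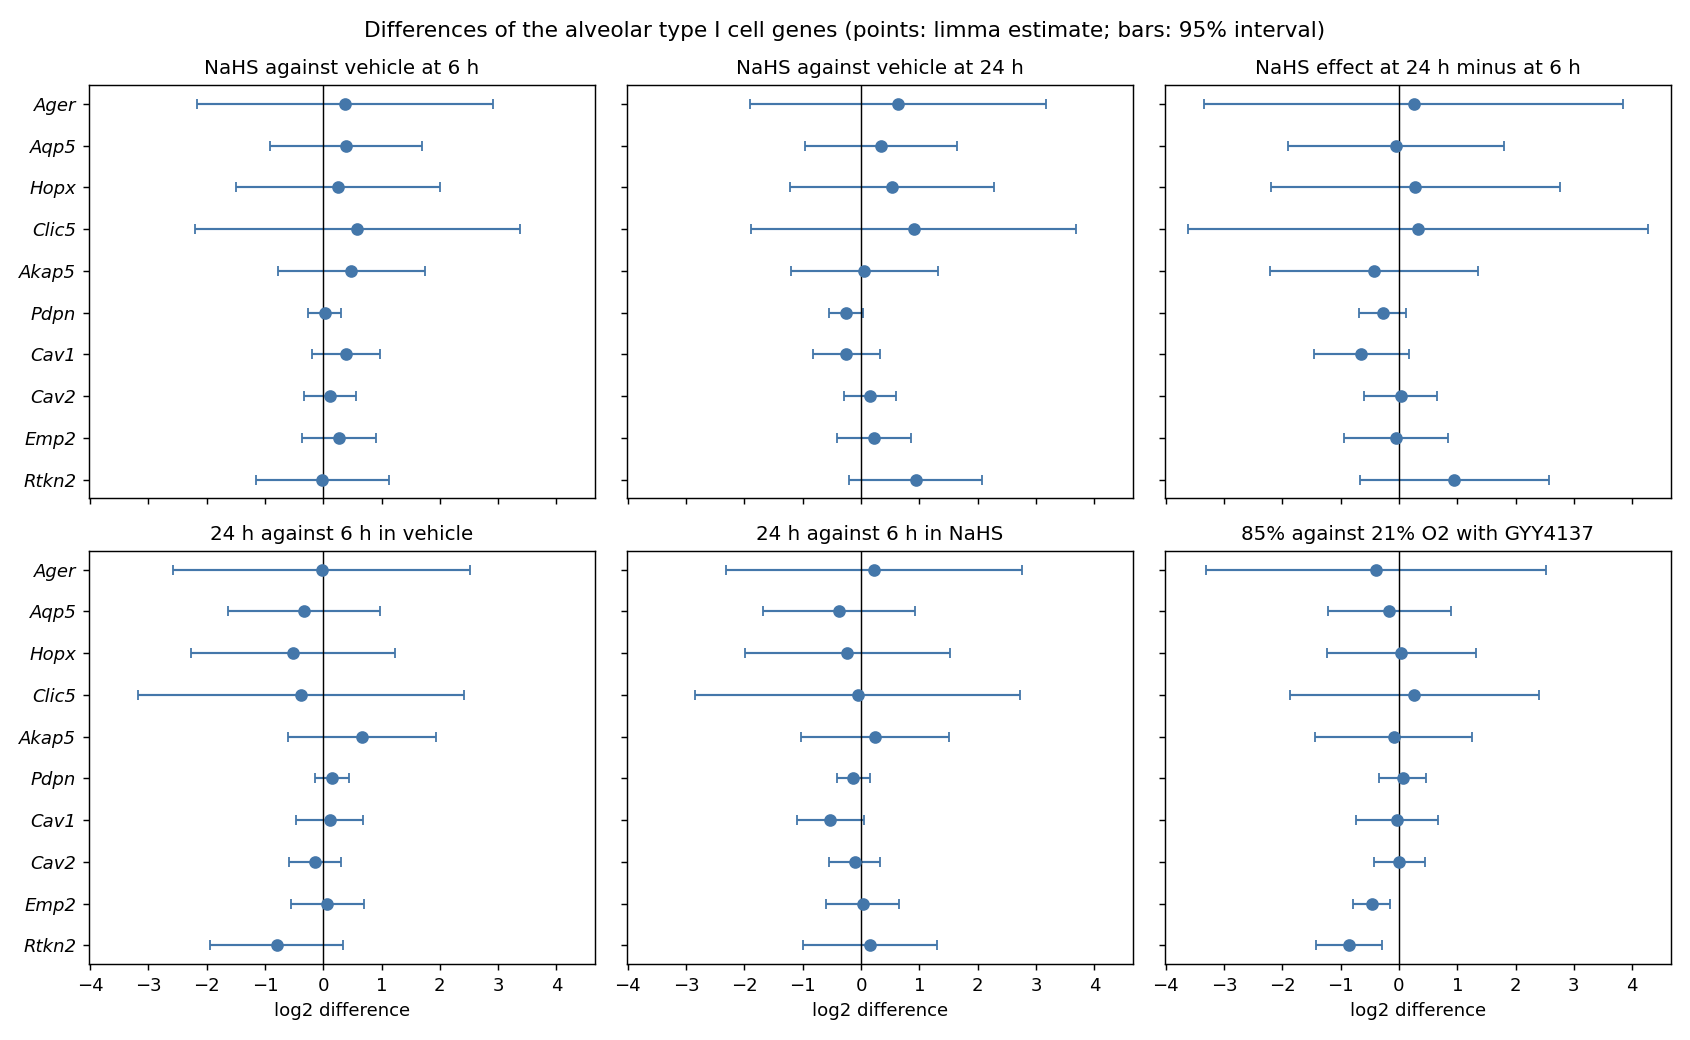
Difference of each of the 10 genes in the 6 comparisons, on the log2 scale; points are limma estimates, bars 95% intervals, and the line marks 0. Every interval includes 0 in the 5 comparisons of the NaHS experiment, and in the oxygen comparison those of Emp2 (-0.79 to -0.15) and Rtkn2 (-1.42 to -0.29) lie below 0 before adjustment over all genes.

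The members' variation across arrays was then described along Ager, a choice made after their values were seen. Over the 16 arrays of the NaHS experiment Pearson's r with Ager was 0.96 for Clic5 (Spearman's coefficient 0.96), 0.94 for Hopx (0.94), 0.93 for Akap5 (0.91), 0.91 for Aqp5 (0.89) and 0.88 for Cav2 (0.90). For Rtkn2 r was 0.77 (0.67), for Emp2 0.73 (0.64) and for Cav1 0.49 (0.48). Pdpn ran the other way at -0.55 (-0.46). These 9 correlations are given without a p, since arrays that share a slide, and with it odd or even replicate numbers, deviated together and are not independent.

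The correlations were positive within both slides for all of these genes but Pdpn. Over the 8 arrays of slide 1 r was 0.95 for Clic5, 0.93 for Akap5, 0.86 for Hopx, 0.83 for Cav2 and 0.79 for Aqp5, and over the 8 of slide 2 it was 0.92 to 0.98. For Emp2 it was 0.88 and 0.75, for Rtkn2 0.68 and 0.81, for Cav1 0.08 and 0.67, and for Pdpn -0.23 and -0.77. The 2 arrays farthest from the median of Ager were replicate 4 of both 6 h groups. Without them r was 0.96 for Clic5, 0.93 for Hopx, 0.91 for Akap5, 0.88 for Aqp5 and 0.82 for Cav2, but 0.60 for Rtkn2, 0.52 for Emp2, 0.30 for Cav1 and -0.48 for Pdpn. Ager itself had r of 0.22 with the percentage of spots well above background and 0.46 with the array's 75th percentile of log2 signal (0.56 and 0.77 within slide 1, 0.59 and 0.41 within slide 2). The part of these array measures in the relation was not tested.

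**Figure D3:**
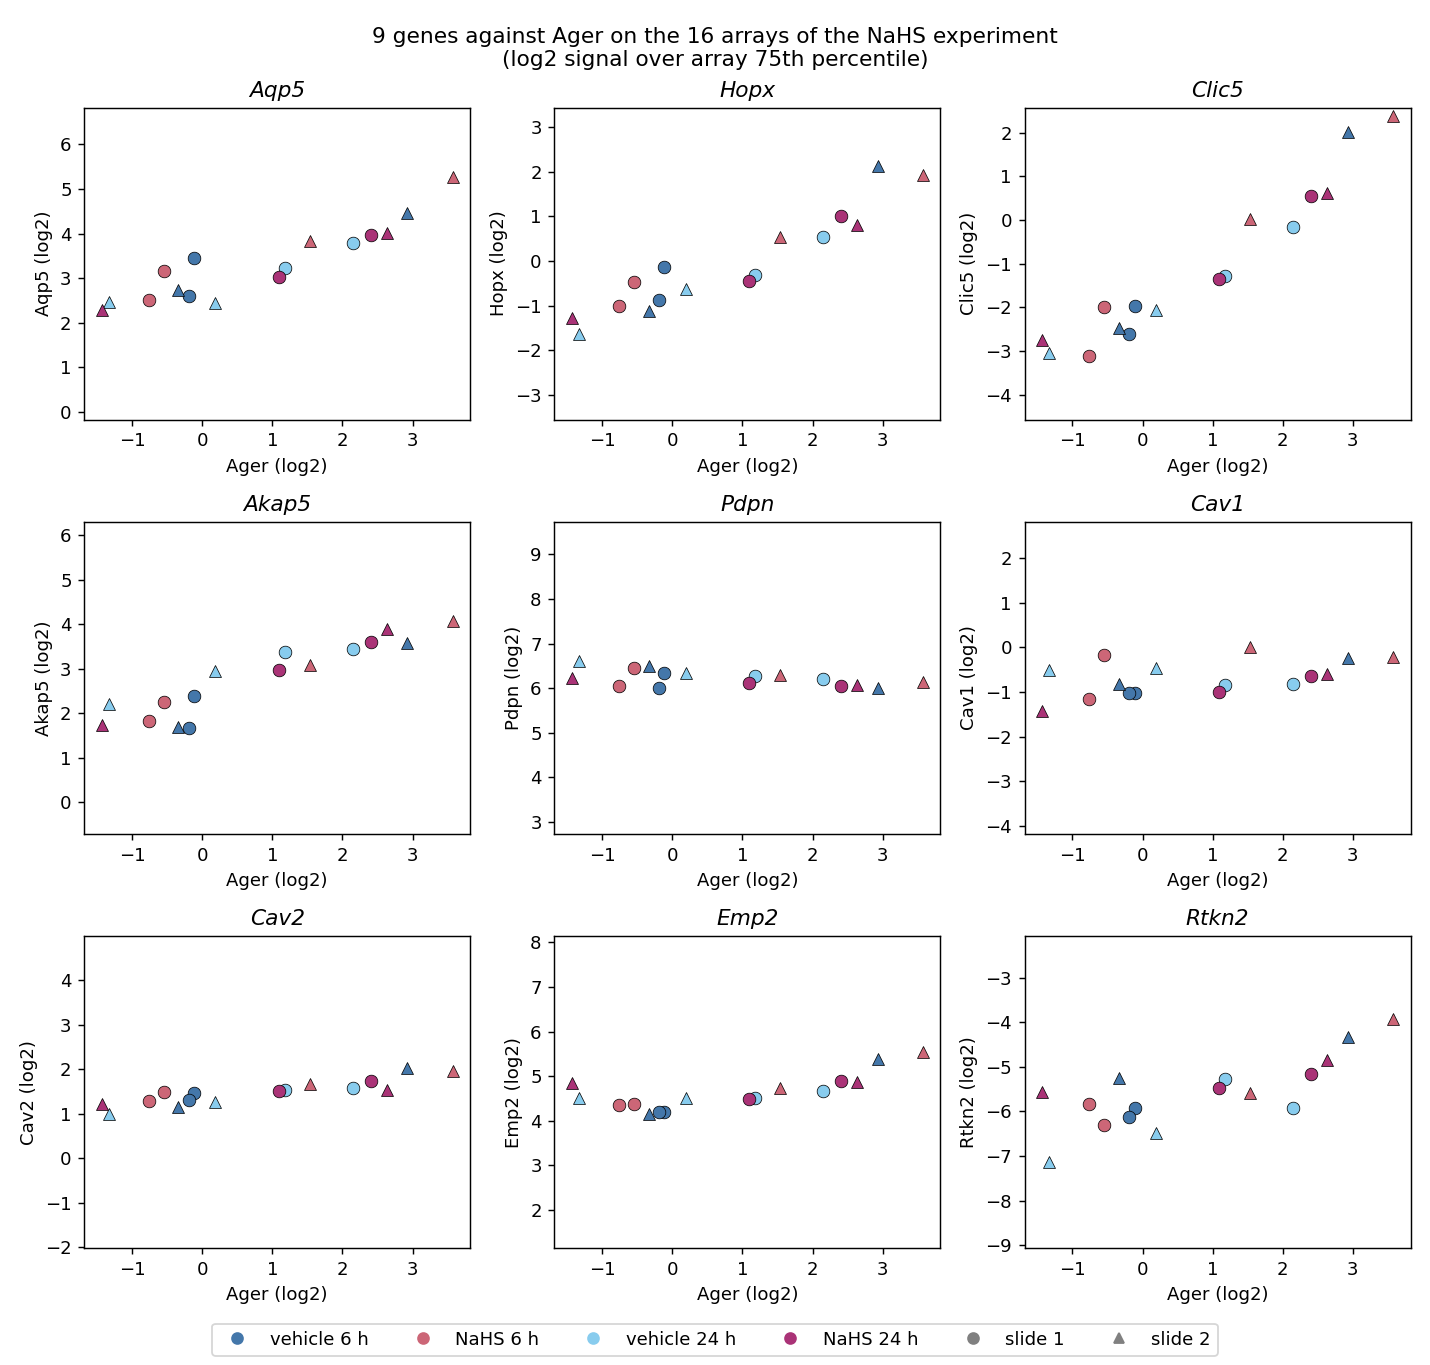
Level of 9 genes against that of Ager on the 16 arrays of the NaHS experiment, both in log2 signal over the array's 75th percentile; colours give the group and shapes the slide, and all vertical axes span about the same number of log2 units. Clic5 climbs over 5.48 units along Ager, Hopx, Akap5 and Aqp5 climb less steeply, and Pdpn is flat, with arrays of all 4 groups mixed along the axis.

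A slope on Ager was fitted for every gene with the 4 groups and the slide as terms, which called 6.43% of the other 33254 genes (1117 rising and 1022 falling with Ager; median slope -0.01). Of the 9 remaining members 7 rose with Ager and 0 fell. The fits along Ager treat arrays as independent, apart from any block named, and Ager was chosen after the values were seen. Their p-values and counts are therefore a description only. The slope, in log2 units per log2 unit of Ager, was 1.04 ± 0.07 for Clic5 (limma adjusted p 2.26e-05), 0.66 ± 0.06 for Hopx, 0.48 ± 0.05 for Aqp5 and 0.48 ± 0.04 for Akap5. Smaller slopes passed for Rtkn2 (0.36 ± 0.07), Emp2 (0.17 ± 0.04) and Cav2 (0.16 ± 0.02). Cav1 at 0.12 ± 0.05 (adjusted p 0.171) and Pdpn at -0.06 ± 0.03 (adjusted p 0.194) did not pass by limma. Without slide in the model, which called 3.63% of all genes, 6 members passed and Emp2 did not (limma adjusted p 0.0746). Without replicate 4 of both 6 h groups, 0.532% of all genes passed and 4 members did: Clic5 (0.92 ± 0.08), Hopx (0.57 ± 0.07), Akap5 (0.47 ± 0.05) and Aqp5 (0.43 ± 0.07). With the replicate number as a block in place of slide, which called 1.15% of all genes, 5 of 9 members passed: Clic5 (1.06 ± 0.10), Hopx (0.62 ± 0.08), Aqp5 (0.52 ± 0.07), Akap5 (0.46 ± 0.04) and Cav2 (0.16 ± 0.03). Emp2 (limma adjusted p 0.328) and Rtkn2 (0.149) did not. With a block for each replicate number at each time, so that only the difference between a vehicle array and the NaHS array of its number enters, 0 of 9 members and 0% of all genes passed by limma (1789 genes and 4 of the 9 at an unadjusted p under 0.05). The slopes in that fit were 1.05 ± 0.11 for Clic5, 0.63 ± 0.07 for Aqp5, 0.61 ± 0.13 for Hopx and 0.53 ± 0.08 for Akap5, with limma adjusted p-values from 0.328 to 0.679.

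Genes of a wider type I list, also picked with earlier results of these data known, were followed along Ager in the same fit. Of 23 tested 15 rose and 2 fell with Ager, with a median slope of 0.23. Without the 2 arrays named above 7 rose and 0 fell, with the replicate number as a block 10 rose and 0 fell, and with a block for each number at each time 0 passed by limma. Cldn18, a tight junction claudin of the alveolus (0.70 ± 0.04), Col4a3, a basement membrane collagen chain (0.72 ± 0.05), Gprc5a, a retinoic acid-induced receptor (0.43 ± 0.04), and Ndnf, a secreted factor (0.69 ± 0.06), had the lowest p-values. The 2 that fell were Vegfa, the endothelial growth factor that type I cells secrete (-0.17 ± 0.04), and Timp3, a metalloproteinase inhibitor (-0.15 ± 0.04). In the group comparisons this list had 0 of 23 called in each of the 5 comparisons of the NaHS experiment and 1 of 23 by oxygen, against 15.5% of all genes there. The 1 gene was Samhd1, a nucleotide hydrolase (-0.79 ± 0.22, limma adjusted p 0.0463). The closest genes at 6 h of NaHS were Spock2 (-0.30 ± 0.21), a matrix proteoglycan, and Ahnak (0.23 ± 0.17), a large scaffold protein. At 24 h of NaHS they were Timp3 (-0.39 ± 0.25) and Krt7 (0.58 ± 0.37), a keratin of simple epithelium. For the difference between these effects they were Sema3a (-0.60 ± 0.35), a secreted guidance protein, and Timp3 (-0.51 ± 0.35). Over time they were Sema3a (0.95 ± 0.25, limma adjusted p 0.0963) and Timp3 (0.69 ± 0.25) in vehicle, and Vegfa (0.67 ± 0.35) and Sema3a (0.34 ± 0.25) in NaHS.

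Genes of other cell types were followed in the fit with groups and slide. Of 10 type II genes tested 7 rose with Ager and 0 fell, with a median slope of 0.40. They were led by the surfactant protein genes Sftpc (0.63 ± 0.06) and Sftpd (0.72 ± 0.07) and the chemokine gene Cxcl15 (0.45 ± 0.05). Cxcl15 was above background on only 6 of 16 arrays. Without the 2 arrays, 2 of 10 rose. The summed signal of the type II genes, relative to each array's 75th percentile, ranged from 49.4 to 96.5 in vehicle and 48.8 to 137 in NaHS at 6 h, and from 39.7 to 60.1 and 43.3 to 68.3 at 24 h. Of 7 smooth muscle and pericyte genes 4 fell and 0 rose, Myh11 (-0.30 ± 0.02) and Acta2 (-0.12 ± 0.02) among them. Without the 2 arrays, 1 fell. Their summed signal ranged from 565 to 990 in vehicle and 625 to 934 in NaHS at 6 h, and from 1007 to 1164 and 739 to 1003 at 24 h. Of 9 endothelial genes 2 rose (Tie1 and Emcn), Emcn being above background on 10 of 16 arrays. Among 14 genes of transitional epithelium 4 rose (Tnip3, Itgb6, Sfn and Krt19). Among 11 YAP and TAZ genes 3 rose (Ajuba, Tead4 and Ccn1), and of 8 caveola coat genes 2 fell (Cav3 and Cavin4). Of 6 macrophage and leukocyte, 4 basal and 5 ciliated cell genes 0 passed by limma. Of 7 fibroblast genes 1 fell (Col1a2), of 5 club cell genes 1 rose (Scgb1a1) and of 5 genes of lymphatic endothelium and mesothelium 1 rose (Msln). Without the 2 arrays, of the lists from the endothelial genes on, 1 transitional gene rose and 0 of the others passed by limma. With the replicate number as a block 4 type II, 2 transitional and 3 macrophage and leukocyte genes rose, 1 smooth muscle gene fell and 0 of the other lists here passed, and with a block for each number at each time 0 of any list passed by limma. The part of these cell types in the members' variation was not tested.

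For the other lists the oxygen counts are read against the 15.5% of all genes called. Of 8 caveola coat genes 2 were higher in 85% oxygen, Pacsin3 (0.73 ± 0.18) and Cavin4 (0.93 ± 0.24), 4 of the 8 estimates being positive, while Cav1 and Cav2 gave -0.04 ± 0.31 and 0.01 ± 0.19. Of 9 type II genes 1 was lower, the lysosomal membrane gene Lamp3 (-1.05 ± 0.14, limma adjusted p 0.0045). Of 7 smooth muscle and pericyte genes Des was lower (-1.29 ± 0.25) and Notch3 higher (1.35 ± 0.24), with 6 of the 7 estimates negative and a median of -0.41. Of 7 fibroblast genes 1 was lower (Thy1, -1.06 ± 0.16), and all 7 estimates were negative. Higher in 85% oxygen were 1 of 14 transitional genes (Cldn4, 1.56 ± 0.38), 1 of 7 endothelial genes (Tek, 1.17 ± 0.28), 1 of 6 lymphatic and mesothelial genes (Prox1, 1.28 ± 0.20) and 2 of 4 ciliated cell genes (Foxj1, 1.45 ± 0.34, and Tppp3, 0.76 ± 0.19). Of 11 YAP and TAZ, 6 macrophage and leukocyte, 4 basal and 4 club cell genes 0 were called by limma. The part of these cell types in the Emp2 and Rtkn2 differences was not tested.

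Over time in vehicle 0.806% of all genes were called. Of the lists, 1 of 10 type II genes (Sftpa1, -3.14 ± 0.52) and 1 of 5 club cell genes (Scgb3a1, -3.71 ± 0.68) were lower at 24 h by limma, while Ager differed by -0.03 ± 1.18. Of 7 smooth muscle and pericyte genes 1 was higher (Notch3, 1.24 ± 0.17), with all 7 estimates positive and a median of 0.89. Of 7 fibroblast genes 1 was higher (Thy1, 1.16 ± 0.23), while 4 of the 7 estimates were negative and the median was -0.36. Positive estimates were 6 of 6 for macrophage and leukocyte (median 0.81), 7 of 9 for endothelial (0.74) and 5 of 5 for lymphatic and mesothelial genes (0.48). They were 0 of 5 for ciliated (-1.33) and for club cell genes (-2.88). With slide as a block (2.14% of all genes called) 2 smooth muscle, 1 fibroblast, 1 endothelial and 1 caveola coat gene were higher. In that fit 1 type II and 2 club cell genes were lower.

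**Figure D4:**
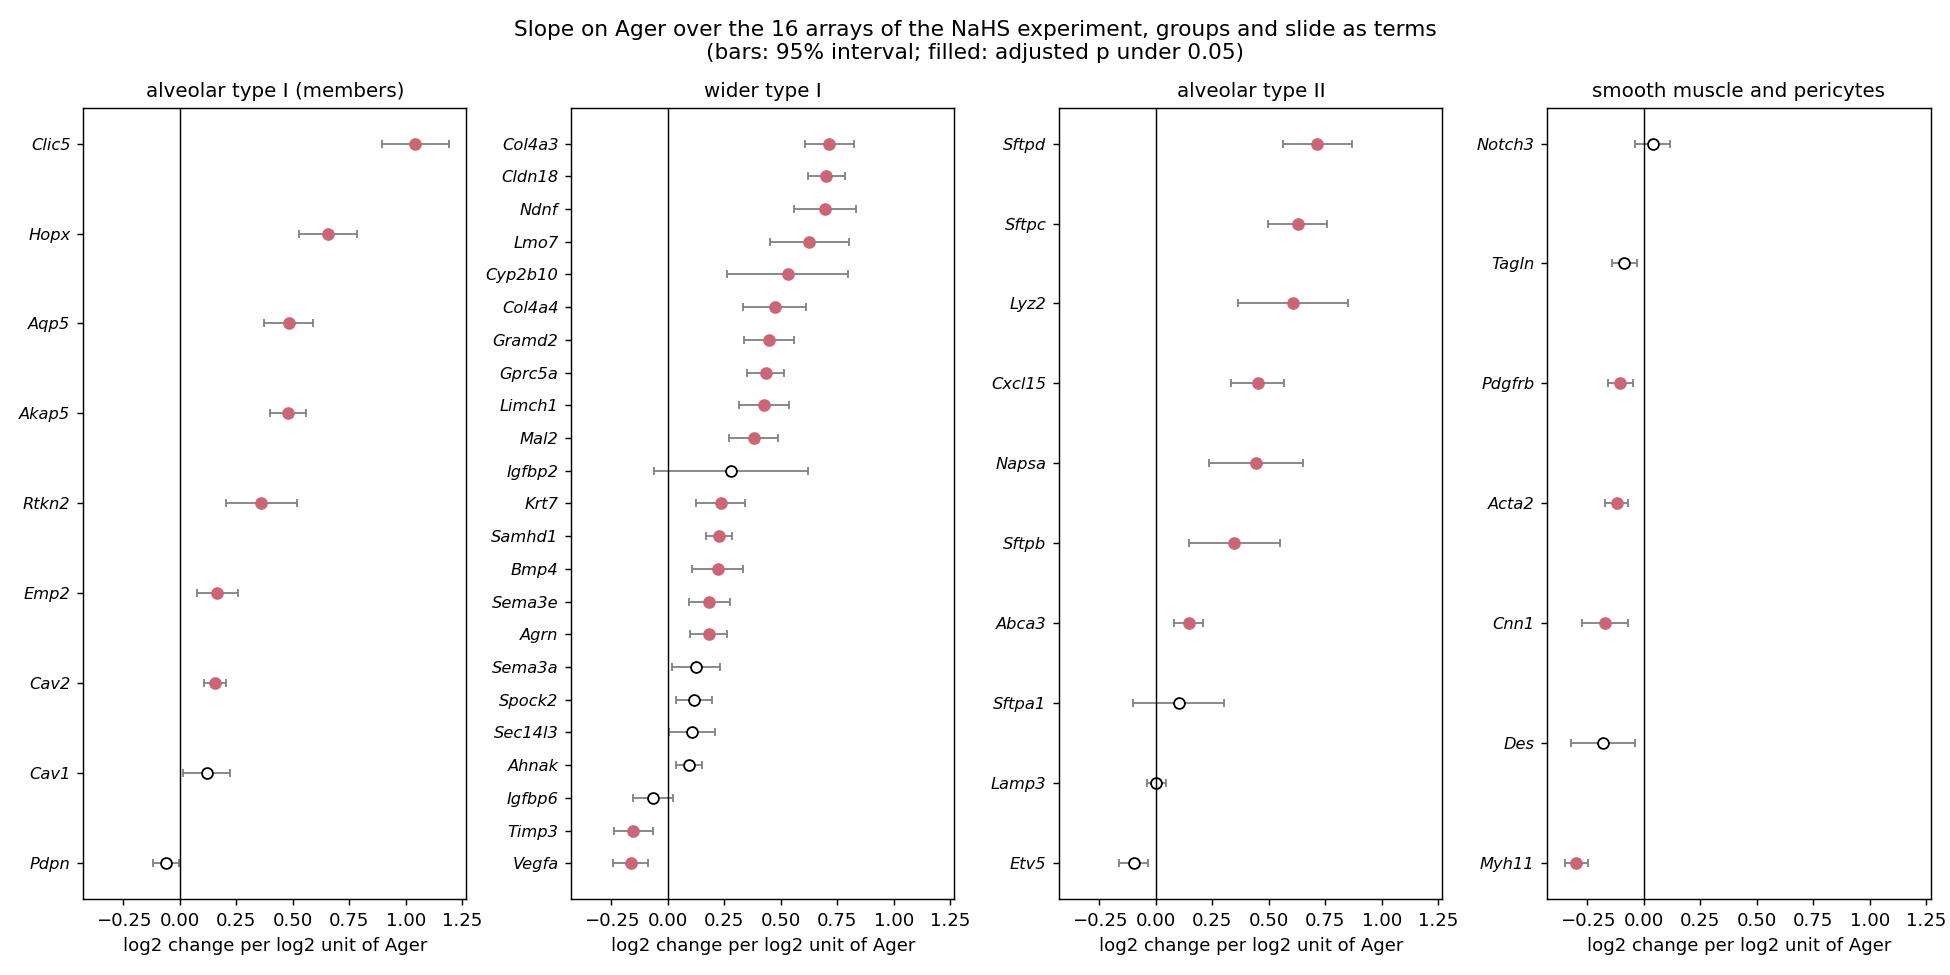
Slope of each gene on Ager over the 16 arrays of the NaHS experiment with the 4 groups and the slide as terms, in log2 units per log2 unit of Ager, for 4 gene lists; bars are 95% intervals and filled points have a limma adjusted p under 0.05. In the first panel 7 of 9 members are filled and positive; type II genes are mostly positive and smooth muscle genes mostly negative.

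The genes whose pattern was most like Ager were ranked by Pearson's r over the 16 arrays of the NaHS experiment after subtraction of slide means. The ranking covered 14948 genes. The 5 highest were Scnn1b (r = 0.99), Arhgef26 (0.98), Bcam (0.98), Cldn18 (0.97) and Scnn1a (0.97), with Clic5 the 7th. Scnn1a and Scnn1b encode subunits of the epithelial sodium channel, Bcam a laminin-binding adhesion molecule of the basal surface and Arhgef26 a guanine nucleotide exchange factor. Their slopes on Ager were 0.69 ± 0.03 for Scnn1a, 0.83 ± 0.04 for Scnn1b, 0.43 ± 0.03 for Bcam and 0.50 ± 0.03 for Arhgef26. The slopes come from the same arrays as the ranking, so a close fit followed from the choice. These arrays share slides and 1 scaling value each. In the GYY4137 experiment, not used for the ranking, Scnn1b ranged from -4.28 to -1.65 in 21% and from -4.19 to -1.15 in 85% oxygen, and Cldn18 from -3.96 to -0.75 and from -3.04 to -0.96.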

How the data were processed

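Spot intensities were deposited as scanner output of Agilent Feature Extraction 10.7.3.1, whose processed signal is background-subtracted, per the file headers. Log2 values of the same arrays were deposited by the authors in a value table. Its columns all had a median of 5.947 (NaHS) or 7.074 (GYY4137) and correlated with the scanner log2 signals at r of at least 0.998; how the authors scaled it is not given in the sources used here. Well-above-background and outlier flags came as deposited, per the file headers.

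Each array's log2 processed signal was centred on its 75th percentile over gene spots. Outlier spots were left out (0 gene spots were saturated), replicate spots averaged, and probes kept when above background on at least 4 arrays of the experiment. The probe with the highest mean stood for a gene. limma 3.58.1 (R 4.3.3) was fitted per experiment, the 4 NaHS groups together, with Benjamini-Hochberg adjustment over all genes. The fit was tried on simulated data with independent arrays, which does not cover arrays that deviate together as these did. The number of arrays limits the precision. Alternatives were background correction, scaling, filter, probe rule, slide, replicate number, array weights and each array left out.

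Replicate numbers come from the sample titles. Deviations of same-numbered arrays correlated at 0.55 to 0.75 in the NaHS experiment, where odd and even numbers lie on different slides. After slide centring they correlated at -0.23 to 0.39, and in each comparison at most 1 of 4 arrays matched its own number best. In the GYY4137 experiment the correlations were 0.18 to 0.26, and 4 of 4 arrays matched their own number best. The main group fits hold no replicate term, and the numbers served as pairs only in alternative fits.

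The 10 genes and all lists were chosen with earlier results of these data known. All 10 genes are reported, their other probes by group difference; of each other list, called genes (up to 4 by p in a comparison, otherwise up to 2) are named, except a macrophage gene near background in the time comparison; genes along Ager were named after their values were seen. Motifs were searched in RefSeq promoters.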

Additional observations from a re-analysis of the deposited data

Results flagged for a closer look

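In 6 of the 60 sets of 4 arrays (10 genes in 6 groups) 1 array stood apart from the other 3. Its gap to the nearest was over Dixon's 95% critical share of the whole range. Chance alone marks about 1 in 20 independent sets, but these sets share arrays and most of the genes varied together. The count can therefore not be set against that rate, and the share over all genes was not counted. In vehicle at 6 h replicate 4 was high for 3 genes. Ager read 2.93 there, against -0.34 to -0.11 on the other arrays. Clic5 read 2.02, against -2.61 to -1.97. Emp2 read 5.39, against 4.14 to 4.20. Emp2 also had a low replicate 1 in NaHS at 24 h, at 4.48 against 4.86 to 4.90. In vehicle at 24 h its replicate 3 was high, at 4.66 against 4.51 to 4.52. Cav1 was low in replicate 4 of GYY4137 in 85% oxygen, at -1.21 against -0.38 to -0.25.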

How the results depend on the processing

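In the 5 comparisons of the NaHS experiment 0 of the 10 genes were called under each alternative run, including each array left out, the slide block and the fits within a slide. For oxygen the count moved from 0 to 2 (Emp2 and Rtkn2) with array weights and with median scaling, to 1 (Emp2) with the mean of the probes of a gene and with only probes above background on every array, and to 1 (Rtkn2) with normexp background, quantile normalization and the authors' value table; leaving out 1 array gave 0 to 1. Without the filter on dim probes it was 0. The cause of these moves was not tested. By oxygen the main fit called 15.5% of all genes, and the share under these alternatives was not counted. Along Ager the count was 7, beside 6.43% of all genes. It moved to 4 (0.532% of all genes) without replicate 4 of both 6 h groups, where fewer arrays entered. The count was 7 with median scaling (5.12% of all genes) and with quantile normalization (8.03%). With the replicate block it was 5 (1.15%). With the replicate block within each time, which leaves few residual degrees of freedom, it was 0 (0%). With the replicate block, pairing arrays of the same number, 0 of 10 genes were called in each of the 6 comparisons. The block changed the count of all genes for time in vehicle from 268 to 899, changed no group comparison's call among the 10 and gave 5201 genes by oxygen. Pairs within each time, like all fits along Ager chosen after seeing the data, gave 0. Signs of the uncalled, widely spread genes turned in some alternatives: for NaHS at 6 h that of Ager in 2 of 23 and that of Hopx in 4 of 23, and for oxygen that of Ager in 5 of 18. Signal near background limits Rtkn2.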
